A study of Mus musculus with 10 samples.

Results

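The genes described here are 10 genes of the ATF4 pathway and the unfolded protein response: Atf4, Atf3, Ddit3, Chac1, Trib3, Pycr1, Xbp1, Edem1, Sdf2l1 and Manf. They were taken by symbol from the mRNA tables, which hold 40904 gene symbols, and each of the 10 symbols had 1 row. All 10 reached 1 FPKM on average over both libraries (mapped fragments scaled to transcript length and to library size), as did 13740 symbols in all, which are the genes compared below. The cells are labelled as cortical neurons cultured from E14 embryos of ICR mice and collected on day 11 in vitro. Markers of astrocytes and other cell types were also present, as given below, so the levels need not be those of neurons alone. One culture group had received AAV-Control and the other AAV-Gata1, an adeno-associated virus carrying the blood cell transcription factor gene Gata1. The promoter that drives Gata1, the cargo of the control virus and the number of embryos per culture are not stated in the labels. With 1 mRNA library per condition the differences could not be checked against replicates, and no test was made. The series lists 10 samples in all, and only these mRNA libraries were used.

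Cells meet a load of misfolded protein in the endoplasmic reticulum with the unfolded protein response, which starts from the membrane sensors PERK, IRE1 and ATF6. PERK phosphorylates the translation factor eIF2alpha, as do the related kinases HRI, PKR and GCN2. This slows most protein synthesis and favours translation of ATF4, a transcription factor that turns on genes of amino acid supply and, when stress lasts, of cell death. IRE1 splices Xbp1 mRNA into the form that encodes an active transcription factor, and ATF6 is cut in the Golgi to release another. Both raise chaperones and genes that clear misfolded proteins. ATF4 is set largely at translation and XBP1 by splicing, and FPKM per gene shows neither step.

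Targets of ATF4 often carry a C/EBP-ATF response element, whose core was searched here as TGATGNAA on both strands. Promoter windows from RefSeq (GRCm38.p6), from 250 bases before to 50 bases after a gene start, were found for 9 of the 10 genes, Manf being the one without. The Edem1 window surrounds a start that lies inside the gene as the RefSeq gene table bounds it. The core was present in the windows of Atf3, Chac1, Trib3 and Pycr1, which all belong to the ATF4 arm, and in none of the windows of Atf4, Ddit3, Xbp1, Edem1 and Sdf2l1. Over all 32851 windows that RefSeq gives, 3.97% hold it. The stretches around the 4 matches are printed to show where the core lies. The core pattern is all that was searched for in common, and it reads TGATGTAA in Trib3 and TGATGCAA in the others. Each reads 5′ to 3′ in the sense of its gene, with the matched core in capitals. In Atf3, Chac1 and Trib3 the core lies on the opposite strand, so the capitals show its reverse complement.
Atf3: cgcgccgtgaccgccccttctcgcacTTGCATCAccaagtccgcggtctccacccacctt
Chac1: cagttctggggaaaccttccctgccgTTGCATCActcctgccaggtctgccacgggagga
Trib3: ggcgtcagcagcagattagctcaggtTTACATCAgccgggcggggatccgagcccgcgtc
Pycr1: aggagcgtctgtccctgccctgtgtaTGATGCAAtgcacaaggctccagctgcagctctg
The Atf3 stretch is chr1:191183410-191183469 on the minus strand, and its core begins 110 bases before the gene start. The Chac1 stretch is chr2:119351023-119351082 on the plus strand, with the core 193 bases before the start. The Trib3 stretch is chr2:152344013-152344072 on the minus strand, and its core begins 14 bases after the start. The Pycr1 stretch is chr11:120643818-120643877 on the minus strand, with the core 103 bases before the start.

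**Figure D1:**
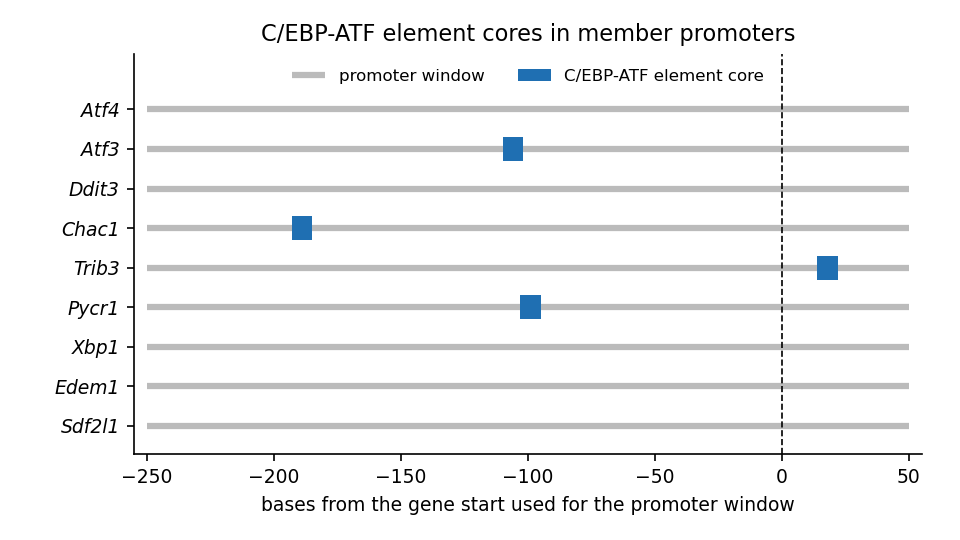
Promoter windows of the 9 genes found in the RefSeq table, drawn as grey bars over the distance from the gene start in bases, with blue boxes at matches to the C/EBP-ATF element core. A match lies in 4 windows, before the start in Atf3, Chac1 and Pycr1 and just after it in Trib3.

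Other elements of stress response were searched in the same windows, on both strands. They were CCAAT and CCACG 9 bases apart (the endoplasmic reticulum stress response element, 0.119% of all windows), ATTGG and CCACG 1 base apart (its second form, 0.0365%), TGACGTGG (the core of the unfolded protein response element, 0.676%) and TGACGTCA (the cyclic AMP response element, 1.79%). None of the 9 windows held any of these, which says only that these letters are not in these windows. The differences described next can be set beside the C/EBP-ATF match. Of the 4 genes with it, Atf3, Trib3 and Pycr1 read higher and Chac1 lower in the AAV-Gata1 library. Of the genes with a window but no match, Xbp1 and Edem1 read higher there, and Atf4, Ddit3 and Sdf2l1 lower. Among 9858 compared genes with a window, the 258 with the core had a median log2 ratio of -0.0011, beside -0.012 for all 9858. Of the 258, 49.2% were higher in AAV-Gata1, beside 45.2% of all 9858. Any part of the match in these differences was not tested.

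Of the 10 genes, 5 were higher and 5 lower in AAV-Gata1, and 9 lay within 1.2-fold. Summed over the 10, the control held 308.3 FPKM and AAV-Gata1 302.1 FPKM. The value compared for each gene is log2((AAV-Gata1 + 1)/(AAV-Control + 1)) of the FPKM, and its median over the 10 was 0.045, from -0.30 (Chac1) to 0.18 (Pycr1 and Edem1). Over all 13740 genes the median was -0.013, with 45.3% of genes higher. No member was 2-fold apart, against 0.517% of all genes. At least 1.2-fold apart was 1 of 10, Chac1, on the lower side, where 3.98% of all genes lay, and none lay at least 1.2-fold on the higher side, where 3.29% did. In either direction the share over all genes was 7.27%, so 1 of 10 is near the background. Named genes, a subset chosen after the data were seen, leave out symbols such as those of predicted genes and clones. Of these 12236 genes, 2.3% lay at least 1.2-fold higher and 2.84% lower, and at 2-fold 0.0409% and 0.0572%.

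**Figure D2:**
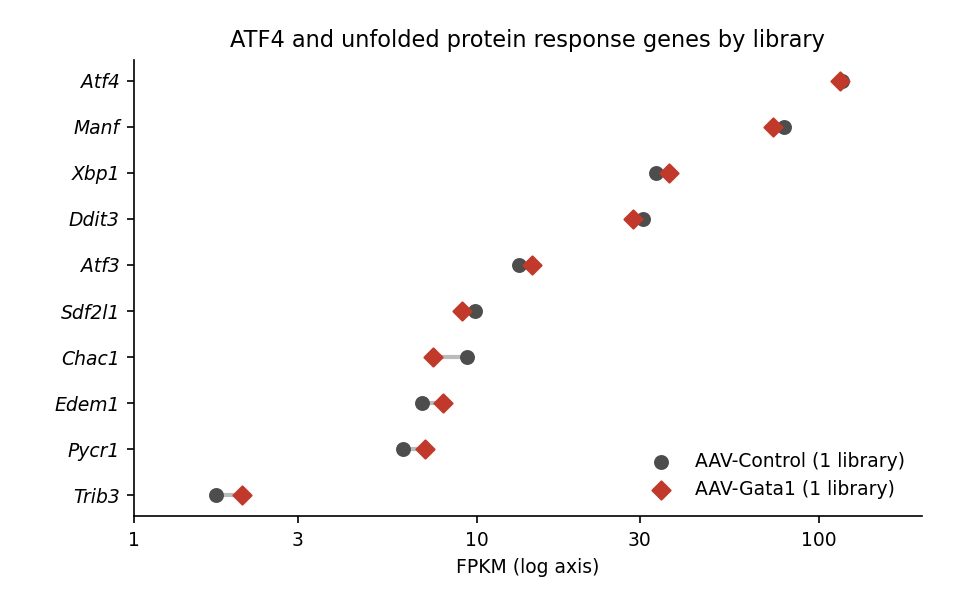
FPKM of each member (log axis) in the AAV-Control library (grey circles) and the AAV-Gata1 library (red diamonds), 1 library each. The genes span from Trib3, near 2 FPKM, to Atf4, above 115 FPKM, and the widest gap relative to level on the lower side is that of Chac1.

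The order of levels was nearly the same in both libraries, with 8 of the 10 genes in the same place. It ran Atf4, Manf, Xbp1, Ddit3, Atf3 and Sdf2l1 from the top, and ended with Pycr1 and Trib3. Chac1 and Edem1 changed places: Chac1 was seventh in the control and eighth in AAV-Gata1. With 1 library per condition there is no spread to say which neighbours in this order differ.

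Atf4, the transcription factor at the head of its arm, was measured at 117.4 FPKM (control) and 115.2 FPKM (AAV-Gata1). That is above 95.2% of compared genes in the control and 95.1% in AAV-Gata1. Its log2 ratio of -0.03 was the smallest of the 10 in size. By Euclidean distance in log2(FPKM + 1) over the 2 libraries, the compared genes most like Atf4 were Romo1, Sfxn5, Kif1b, Rab31 and Eif1b, all within 0.035. A likeness over 2 libraries rests on level and 1 ratio alone.

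Transcription factors that act with or after ATF4 went in different directions by small amounts. Ddit3, which encodes CHOP, a factor tied to cell death under lasting stress, stood at 30.6 and 28.7 FPKM (control, then AAV-Gata1, here and below), a log2 ratio of -0.09. Atf3, an early stress factor that neurons also make after injury, stood at 13.3 and 14.5 FPKM (0.12). Per unit of Atf4, the Ddit3 level was 0.261 in the control and 0.249 in AAV-Gata1, and the Atf3 level 0.113 and 0.126. Such ratios within a library do not depend on the scaling between libraries. By the RefSeq table the ends of Ddit3 overlap Mbd6 by 77 bases and Mars1 by 71 bases. Whether fragments there were told apart depends on the use of strand in counting, which is not given.

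Chac1, Trib3 and Pycr1 are targets further down the ATF4 arm. Chac1, whose enzyme breaks down glutathione, stood at 9.41 and 7.46 FPKM, a log2 ratio of -0.30, which in FPKM alone is a ratio of 0.793. Of the 5138 compared genes with a mean FPKM within 2-fold of that of Chac1, 5.35% were at least as far apart, in either direction. The Chac1 level per unit of Atf4 was 0.0801 in the control and 0.0648 in AAV-Gata1, and per unit of Ddit3 0.307 and 0.260. Relative to both factors, Chac1 was lower in AAV-Gata1. With a pseudocount of 5 FPKM in place of 1, its log2 ratio was -0.21, short of 1.2-fold.

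Trib3, a pseudokinase that dampens ATF4 and CHOP activity, had the lowest level of the 10, at 1.73 and 2.07 FPKM (0.17). At that level 34.1% of the 2609 genes of like mean were at least as far apart. The Trib3 log2 ratio moved to 0.24 with a pseudocount of 0.1 FPKM and to 0.07 with one of 5. Pycr1, a mitochondrial enzyme of proline synthesis, stood at 6.10 and 7.07 FPKM, a log2 ratio of 0.18, which was 0.12 with a pseudocount of 5. Of the 4690 genes of like mean, 18.4% were at least as far apart as Pycr1. These targets therefore did not go one way, with Chac1 lower and the others higher.

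In the arm of XBP1 and ATF6, the transcription factor gene Xbp1 stood at 33.5 and 36.6 FPKM (log2 ratio 0.12). Edem1, a lectin that sends misfolded glycoproteins to degradation, stood at 6.91 and 7.99 FPKM (0.18), higher like Xbp1. The highest ratio of the 10 changed with the pseudocount, from Pycr1 and Edem1 at 1 FPKM to Trib3 at 0.1 and Edem1 at 5. Sdf2l1, a partner of the chaperone BiP in the endoplasmic reticulum, stood at 9.92 and 9.10 FPKM (-0.11). Manf, a protein of the endoplasmic reticulum that is secreted under stress and known for protecting neurons, stood at 79.4 and 73.4 FPKM (-0.11), lower like Sdf2l1.

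Relative to Xbp1, the Manf level was 2.37 in the control and 2.01 in AAV-Gata1, and the Sdf2l1 level 0.296 and 0.249, while that of Edem1 was 0.206 and 0.218. Hspa5, which encodes BiP and is the classic readout of this response, stood at 224 and 230 FPKM, a log2 ratio of 0.03. Per unit of Hspa5, Manf stood at 0.354 and 0.320. Edem1 overlaps the noncoding gene Gm35417 over 4232 bases in the RefSeq table. Of the 10 members, 8 overlap no other gene there.

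**Figure D3:**
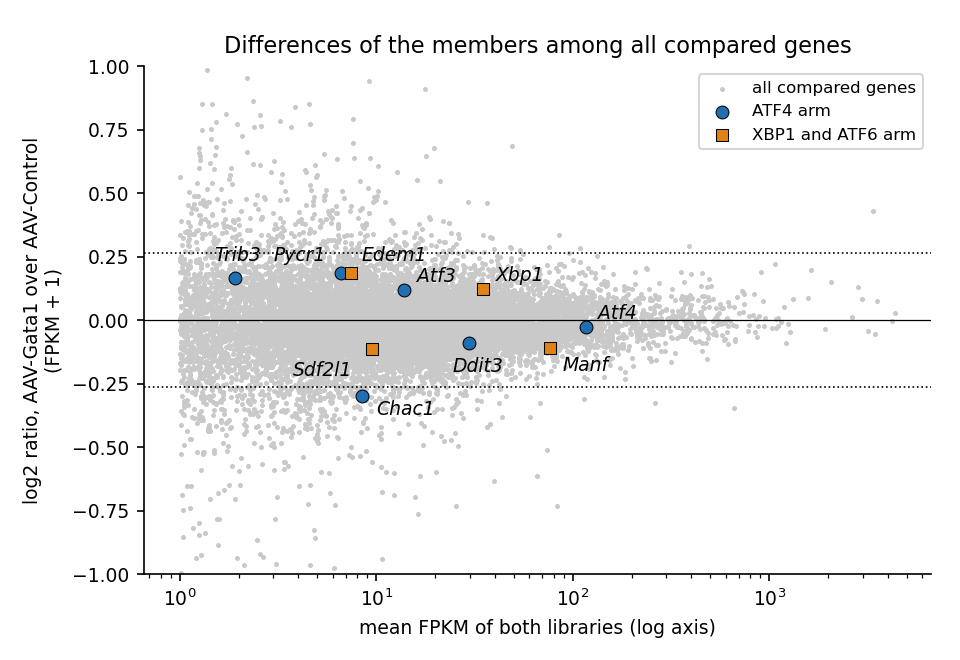
Log2 ratio of AAV-Gata1 over AAV-Control against the mean FPKM of both libraries (log axis), for all compared genes (grey) and the 10 members (blue circles for the ATF4 arm, orange squares for the XBP1 and ATF6 arm). Dotted lines mark 1.2-fold, past which only Chac1 lies among the members, and the 71 genes at least 2-fold apart lie at or beyond the edges of the plot.

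The size of the differences can be read apart from their direction. In size, 9 of the 10 log2 ratios were larger than 0.073, the median size over all compared genes, and Atf4 was the exception. Among genes of like mean FPKM, from 5.35% (Chac1) to 34.1% (Trib3) were at least as far apart as each of these 9, and 72.2% as far apart as Atf4. Of the 124 other compared genes of the pathway, joined from the 8 lists described next, 37 (29.8%) passed that same median size. The median level in the control was 28.6 FPKM for those genes and 11.6 FPKM for the members, and the part of level in this contrast was not tested. Members and lists were chosen with earlier results of these data known, and the part of that choice was not tested either.

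The other genes of the pathway showed no shared difference. Of the 124, 58 were higher and 66 lower, with a median log2 ratio of -0.0019. At least 1.2-fold apart were 2 higher and 1 lower, 2.42% beside 7.27% of all genes and 4.16% of the 10401 genes averaging at least 5 FPKM. None was 2-fold apart. The lists were chosen by function, and a gene could stand in more than 1 of them.

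The sensors and their partners read nearly level, with 2 of 8 higher and a median of -0.035. Eif2ak3, which encodes PERK, stood at 8.72 and 8.40 FPKM, Ern1, which encodes IRE1, at 3.15 and 2.99 FPKM, and Atf6 at 9.30 and 9.29 FPKM. Its relative Atf6b stood at 28.5 and 29.5 FPKM. The Golgi proteases that cut ATF6, Mbtps1 and Mbtps2, stood at 27.2 and 25.7 FPKM and at 12.6 and 12.7 FPKM. Rtcb, the ligase that joins the cut Xbp1 mRNA, stood at 65.1 and 61.9 FPKM, and the IRE1 adaptor gene Traf2 at 7.51 and 7.39 FPKM. No gene of this list lay past 1.2-fold.

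Among the genes that set eIF2alpha phosphorylation, 3 of 8 were higher and the median was -0.025. The kinase genes Eif2ak1 (HRI, 15.4 and 14.5 FPKM), Eif2ak2 (PKR, 9.38 and 9.36 FPKM) and Eif2ak4 (GCN2, 6.35 and 5.89 FPKM) read level or lower, as did Eif2ak3. The target itself, Eif2s1, stood at 22.7 and 25.1 FPKM, a log2 ratio of 0.14. Of the phosphatase subunit genes, the stress-induced Ppp1r15a stood at 20.6 and 19.3 FPKM and the constitutive Ppp1r15b at 26.7 and 28.7 FPKM. Dnajc3, a chaperone also known to inhibit some of the eIF2alpha kinases, stood at 37.0 and 39.5 FPKM.

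ATF4 targets of amino acid supply were higher in 7 and lower in 14 of 21 compared genes, with a median of -0.027. The lowest ratios were those of the cationic amino acid transporter gene Slc7a3 (8.86 and 7.66 FPKM) and the mitochondrial folate enzyme gene Aldh1l2 (7.73 and 6.87 FPKM). The highest were those of the glutamine transporter gene Slc1a5 (3.63 and 3.94 FPKM) and the serine synthesis gene Psph (37.2 and 39.5 FPKM). Slc7a5, which was also listed, was not analysed here. Pycr1 thus had a higher log2 ratio than any gene compared in this list.

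ATF4 targets of transcription and stress signalling were higher in 10 of 16, with a median of 0.0091. Gdf15 and Fgf21, both hormones of the stress response, averaged under 1 FPKM and were not compared. Cebpb, a transcription factor gene also made by microglia, had the highest ratio (8.25 and 12.1 FPKM, 0.51) and alone passed 1.2-fold, followed by the stress factor gene Nupr1 (0.917 and 1.18 FPKM). The secreted glycoprotein gene Stc2 (2.37 and 1.90 FPKM) and the repressor gene Jdp2 (7.67 and 7.05 FPKM) had the lowest. Cytosolic aminoacyl-tRNA synthetases, which load amino acids onto tRNA, were higher in 4 of 12, with a median of -0.016. Their extremes were Cars (23.5 and 27.3 FPKM) and Eprs (42.1 and 44.3 FPKM) on the higher side, and Aars (47.1 and 43.7 FPKM) and Nars (71.9 and 69.7 FPKM) on the lower.

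**Figure D4:**
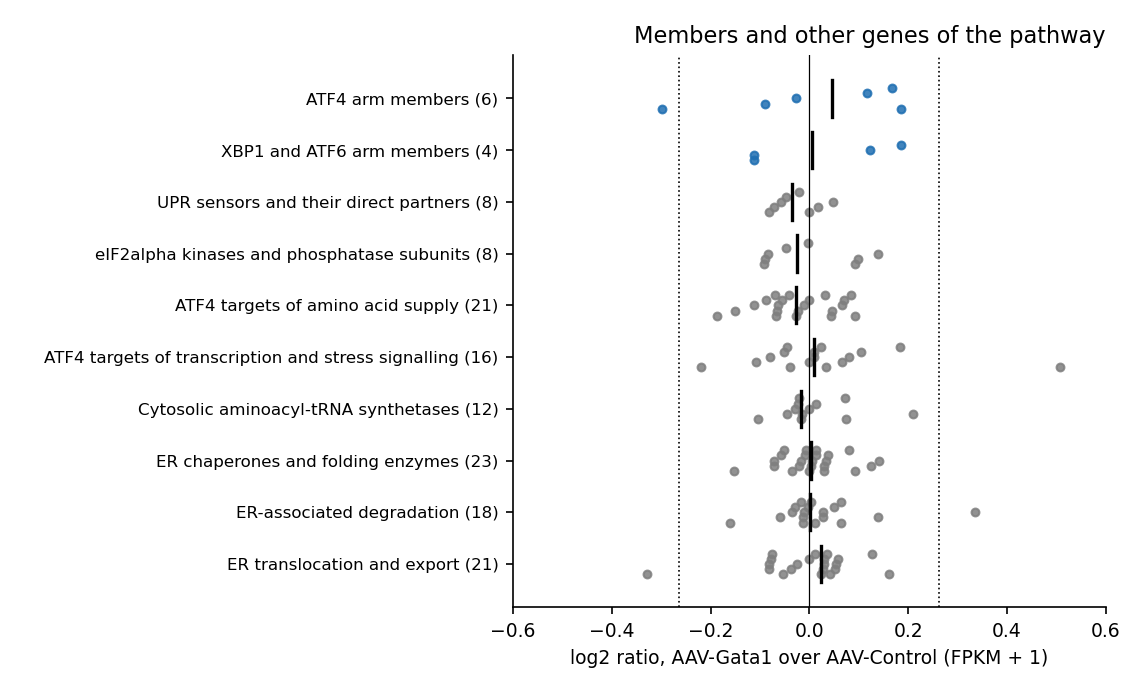
Log2 ratios of AAV-Gata1 over AAV-Control for the members (blue) and the other genes of the pathway (grey) by list, with the number of compared genes in brackets, list medians as black bars and dotted lines at 1.2-fold. The medians lie between -0.035 and 0.045, and the genes past 1.2-fold are Chac1, Cebpb, Derl3 and Sec31a.

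Chaperones and folding enzymes of the endoplasmic reticulum were higher in 13 of 23, with a median of 0.0029 and none past 1.2-fold. Ppib (132.9 and 146.6 FPKM), a prolyl isomerase, and Dnajb9 (37.8 and 41.2 FPKM), a partner of BiP that XBP1 induces, had the highest ratios. The prolyl isomerase gene Fkbp2 (45.2 and 40.5 FPKM) and Txndc11 (12.9 and 12.2 FPKM) had the lowest. Genes of degradation from the endoplasmic reticulum were split evenly, 9 higher and 9 lower, with a median of 0.00055. Derl3, a channel component at a low level (0.875 and 1.37 FPKM), was past 1.2-fold, and Vimp (42.7 and 47.0 FPKM) followed. The ubiquitin ligase gene Syvn1 (19.1 and 17.0 FPKM) and its partner Sel1l (39.4 and 37.8 FPKM) had the lowest ratios. For translocation and export, 12 of 21 genes were higher, with a median of 0.024. Sec31a, a coat protein of vesicles leaving the endoplasmic reticulum, stood at 47.3 and 37.5 FPKM (-0.33) and was past 1.2-fold, and Ssr4 stood at 64.1 and 60.5 FPKM. Tram1 (26.1 and 29.3 FPKM) and Spcs3 (30.8 and 33.7 FPKM), which act in the entry of proteins, had the highest ratios. Srp54a was listed at 0 FPKM in both libraries.

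Of the neighbouring stress programmes, the cytosolic heat shock response had 4 of 9 genes higher, with a median of -0.0092 that turned to 0.0034 with ratios centred on their median. Its extremes were Hspa1b (1.87 and 2.67 FPKM) and Hspa1a (1.17 and 1.33 FPKM) on the higher side, and Dnajb1 (19.0 and 18.1 FPKM) and Hsph1 (37.6 and 36.6 FPKM) on the lower. The mitochondrial unfolded protein response had 6 of 9 higher and a median of 0.019, with Hspe1 (124 and 132 FPKM) and Hspd1 (123 and 131 FPKM) highest and Hspa9 (116 and 111 FPKM) and Clpp (35.04 and 33.98 FPKM) lowest. Activity-induced early genes had a median of 0.025, with 7 of 11 higher. Fos (16.1 and 21.5 FPKM) and Junb (10.9 and 12.7 FPKM) had the highest ratios, and Ier2 (8.97 and 7.73 FPKM) and Nr4a1 (7.84 and 7.18 FPKM) the lowest.

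The libraries summed to 476398 FPKM (control) and 476848 FPKM (AAV-Gata1), and their depth is unknown. The delivered gene, Gata1, was at 2.07 FPKM in AAV-Gata1 and listed at 0 in AAV-Control. Neuron markers were present (Map2 at 240 and 236 FPKM) and lower in all 8 compared, with the other of the 9 listed not analysed. Astrocyte markers were abundant (Gfap at 887 and 897 FPKM), with 3 of 8 higher. All 9 compared microglia markers were higher, and the sum over the 11 listed was 436 FPKM (control) and 518 FPKM (AAV-Gata1), while the defining markers P2ry12 and Tmem119 were under 0.2 FPKM in both. Oligodendrocyte lineage markers were lower in 7 of 9 (summed 255 and 239 FPKM). Pericyte, fibroblast and endothelial markers were lower in 4 of 4 compared (102 and 86.1 FPKM summed over the 9 listed). Most of that sum was Acta2, at 76.4 and 60.7 FPKM, while Pdgfrb was level at 13.6 FPKM in both. Rgs5, Col1a1, Col1a2, Pecam1 and Cldn5 (0 and 0.0503 FPKM) averaged under 1 FPKM and read higher in AAV-Gata1. The part of these markers in the differences of the members was not tested. In bulk RNA, fewer cells of a type and less RNA per cell cannot be told apart.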

How the data were processed

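The deposited mRNA values are FPKM per gene, per the file headers. The library kit, TruSeq Stranded mRNA, keeps strand and was read from both ends, per the labels' protocols. The submitters' processing notes list TopHat2 2.1.1, Cufflinks 2.1.1, Cuffdiff 2.1.1 and other tools, and the builds mm9 and mm10, without their roles. Strand in counting, and scaling across libraries, are not given in the sources used here.

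Rows without a symbol (6 of 40993, 0.0122% and 0.0113% of the summed FPKM) were left out, and a symbol with several rows kept its highest. Genes averaging 1 FPKM or more were compared by log2 of FPKM plus a pseudocount of 1, which understates differences of low genes. The 1.2-fold and 2-fold limits are rules of size. Whole fragments were looked for in 1274 genes detected below 0.1 FPKM in each library. At most 43 had log2 ratios within 0.02 of each other. No expected number was set for this, so it cannot decide whether whole fragments show, and the depth is unknown. Named were the 10 members, Gata1, all genes of the sensor and eIF2alpha lists, and the 2 highest and 2 lowest ratios of each other list. Hspa5, Gdf15, Fgf21, Srp54a, the amino acid supply gene that was not analysed, and the genes of the marker lists were named outside that rule or only in part by it, after their values were seen. Members and lists were chosen with earlier results of these data known. Promoter windows are those of RefSeq (GRCm38.p6). All computing used Python 3.11.15, numpy 2.4.6 and pandas 2.3.3, and the scripts were tested on simulated data.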

Additional observations from a re-analysis of the deposited data

How the results depend on the processing

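Alternatives were a pseudocount of 0.1 or 5 FPKM, no filter or a minimum mean of 5 FPKM, ratios centred on their median, the sum of all rows per symbol and, chosen after the data were seen, named genes only. Over the settings the log2 ratios ran from -0.33 to -0.21 for Chac1, 0.07 to 0.24 for Trib3, 0.12 to 0.21 for Pycr1 and 0.13 to 0.21 for Edem1. All 10 members kept their sign in all 69 alternative values, but these settings could not have turned one. Apart from centring, they repeat the ratio of a member or change its size alone. Centring took off the median of -0.013, smaller in size than any member's ratio. With a pseudocount of 5 the count of members past 1.2-fold was 0. The median over the members turned from 0.045 to -0.028 at a minimum mean of 5, which leaves out Trib3, and so did that of the ATF4 arm members. Of 126 alternative list medians, 125 moved by less than 0.1, and 5 changed sign: beside the ATF4 arm, degradation from the endoplasmic reticulum turned to -0.0020 at a minimum mean of 5, heat shock to 0.012 with no filter and 0.0034 with centring, and pericyte, fibroblast and endothelial markers to 0.044 with no filter. Over all genes, 2-fold higher and lower counts (32 and 39) were 60 and 70 with a pseudocount of 0.1, 17 and 23 with a pseudocount of 5, 18 and 23 at a minimum mean of 5, and 5 and 7 for named genes. The 1.2-fold counts (452 and 547) were 144 and 160 with a pseudocount of 5, 850 and 1032 with no filter, 193 and 240 at a minimum mean of 5, and 281 and 347 for named genes; with a pseudocount of 0.1, 679 were higher and 810 lower. The cause of these shifts was not tested. No paired analysis was possible because each condition had 1 mRNA library.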
